A study of Rattus norvegicus with 196 samples.

Results

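The ventral dentate gyrus (venDG) of rats given fluoxetine (FT) was compared with that of untreated rats (Sham). Members were all samples labelled venDG, which gave 8 of the 196 samples of the series, 4 FT and 4 Sham, with replicate numbers 1, 3, 4 and 5 in each group. Rats from Charles River were 2 months old at the start. They drank water with fluoxetine at 18 mg/kg body weight per day for 6 weeks or plain water. These were naive male Long-Evans animals. There were 40 animals in each group, and each sample pooled tissue punches of 10 of them. A sample therefore averages over animals, and a punch holds every cell type of the tissue, so fewer cells of a type and less RNA per cell cannot be told apart. Samples of the same number in both groups were processed in parallel and are treated as pairs.

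The dentate gyrus is the entry station of the hippocampus, where densely packed granule cells receive input from the entorhinal cortex and send mossy fibres to CA3. It keeps a zone of neural stem cells that make new granule cells in adult rodents, and its ventral end is linked with emotional behaviour more than its dorsal end. Fluoxetine blocks the serotonin transporter, which clears serotonin from the synapse, and raphe neurons supply the serotonin that reaches granule cells.

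The 8 samples held between 5577115 and 15883003 reads on 29188 transcripts, and the replicate 3 samples were the shallowest of each group. The 50 most abundant transcripts took 24.1% to 72.7% of the reads in Sham and 26.2% to 63.0% in FT, with the highest share in replicate 3 of both groups. Reads outside annotated features made up 27.9% to 47.3% in Sham and 24.1% to 49.97% in FT. Levels are given in CPM, the reads of a transcript over the library's total brought to a common size, scaled by edgeR's trimmed mean of M values (TMM). The TMM factors of replicates 1, 3, 4 and 5 were 0.85, 0.46, 1.44 and 1.63 in Sham and 1.12, 0.49, 1.42 and 1.42 in FT. Scaled CPM are divided by these factors, so they are not shares of the reads. The files identify transcripts by Ensembl ID, and a gene symbol was at hand for 1828 of the 13384 transcripts that had enough reads to be tested. Those symbols come from the study's list of transcripts that it called in several regions, these samples included, so the named transcripts are a selected part of the transcriptome and their counts are not independent evidence of a direction.

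Of the 13 granule cell markers listed, 2 could be matched to an ID. Rfx3, a transcription factor, had a median of 31.2 CPM of all transcript reads in venDG Sham samples, second among the 25 regions after dorsal dentate gyrus with 48.2, and the median of the other regions was 10.1. C1ql3, a synaptic organiser, ranked 5 of 25 with 31.99 against 10.8 in the other regions. The vesicular glutamate transporter Slc17a6 ranked 17 of 25 at 25.2, while the region labelled MDT had 495. None of the 4 markers listed for the ventral or dorsal dentate gyrus could be matched, so the ventral position was not checked.

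In FT, the deubiquitinase Otub1 (log2 fold change 1.41 ± 0.25, SE), the cold-inducible Cirbp (1.61 ± 0.32) and Uqcrq, a nuclear-encoded subunit of respiratory complex III (1.52 ± 0.32), were higher than in Sham in each of the 4 pairs. Nucleolin, Ncl (-1.11 ± 0.22), and the neuronal adhesion gene Opcml (-0.92 ± 0.20) were lower in each pair. These 5 transcripts passed the test of DESeq2 and not that of edgeR. No transcript passed edgeR's quasi-likelihood test with Benjamini-Hochberg correction (adjusted p up to 0.1, absolute log2 fold change from 0.32), which made 0 DEGs of 13384 transcripts tested (0%). The smallest adjusted p was 0.175. Without the filter on low counts edgeR called 341 of 22224 transcripts (1.53%), of which 172 were also DESeq2 calls, all in the same direction. At an unadjusted p under 0.05 there were 1591 transcripts, 976 with a higher level in FT (7.29%) and 615 with a lower level (4.6%). DESeq2, the test that the study used, called 243 DEGs at the same thresholds, of which 167 were higher (2.03% of the 8240 transcripts given an adjusted p) and 76 lower (0.922%). All 243 were among the transcripts with an unadjusted edgeR p under 0.05, and 229 of them had the same sign in 4 of 4 pairs. Both tools used the same counts and the same replicate block, so these overlaps are not independent evidence. Over all transcripts tested, 1808 were higher in FT in 4 of 4 pairs (13.5%) and 1117 were lower (8.35%). The 4 FT samples lay wholly above the 4 Sham samples for 115 transcripts (0.859%) and wholly below for 97 (0.725%). In the plot of fold change by level, the transcripts that DESeq2 called lie at the upper and lower edges of the cloud. Below, a transcript is said to be called only by DESeq2, since edgeR with the filter called none.

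**Figure D1:**
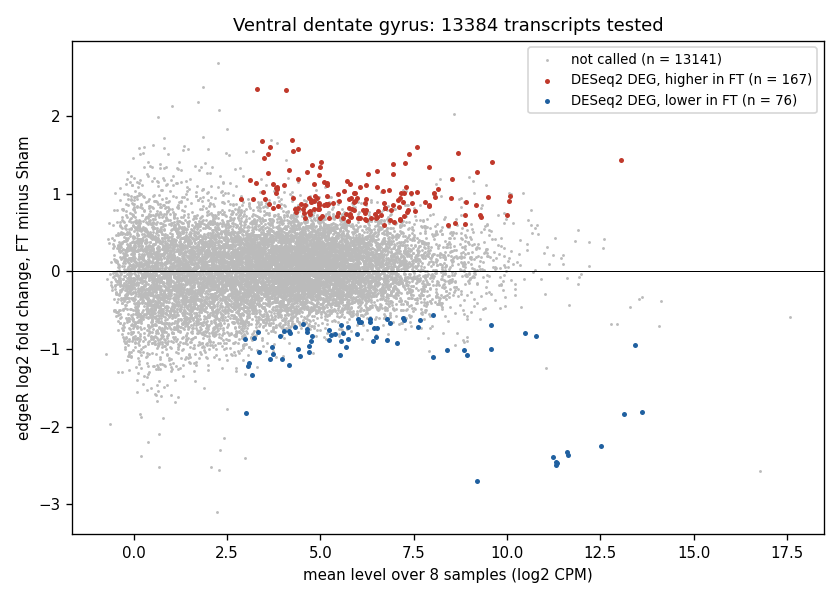
Fold change against level for the 13384 transcripts tested: the x axis is the mean level over the 8 samples in log2 CPM, the y axis edgeR's log2 fold change of FT minus Sham, and each point is a transcript. The 167 transcripts that DESeq2 called higher in FT are red and the 76 called lower are blue. With the filter on low counts edgeR called none.

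The DESeq2 count depended on which pairs entered. Without replicate 1 it was 110, of which 68 were among the 243 in the same direction, and without replicate 4 it was 53, of which 42 were. Without replicate 3, the shallow pair, DESeq2 called 166 transcripts, 102 of them shared, and without replicate 5 it called 216, 95 of them shared. Only 23 transcripts were called in the same direction in all 4 of these fits and in the full one. Among them were Otub1, Cirbp, Slc39a1, Lrtm2, Fam69b, Ndufa7, Uqcrq and Aimp2 on the higher side and Ncl as the single lower transcript with a name. The other lower ones had no symbol and included ENSRNOT00000073568 and ENSRNOT00000074254, abundant transcripts with nearly matching levels that are described below. The log2 ratios of the pairs of replicates 1 and 3 correlated with each other across transcripts at r = 0.41 and those of replicates 4 and 5 at r = 0.51, while the r between these couples of pairs ran from -0.14 to 0.10. These correlations are across 13384 transcripts, which are not independent replicates.

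The named transcripts with the smallest p on the higher side came from many functions. For these and for the leading lower ones, the same sign in 4 of 4 pairs was a condition for being picked, so it is no evidence of a change. Otub1, a deubiquitinase that also blocks ubiquitin-conjugating enzymes, was at 431, 333, 356 and 547 CPM in Sham (replicate numbers 1, 3, 4 and 5, an order kept throughout) and at 1295, 605, 1128 and 1554 CPM in FT. Its groups did not overlap, and its log2 fold change was 1.41 ± 0.25 (SE, 4 pairs), with an adjusted p of 0.242 by edgeR and 2.71e-06 by DESeq2. Rabl3, a small GTPase-like protein, had the smallest edgeR p of the named transcripts. It was at 1.43, 0.394, 17.6 and 15.4 CPM in Sham and 5.9, 1.04, 42.97 and 56.9 CPM in FT, so that replicates 1 and 3 were far below replicates 4 and 5 in both groups. Its log2 fold change was 1.69 ± 0.24, with an edgeR adjusted p of 0.175 and a DESeq2 adjusted p of 9.54e-05. Slc39a1, a plasma membrane zinc importer, had the same layout, with 18.3, 9.46, 106 and 130.2 CPM in Sham and 37.96, 17.7, 279 and 380.1 CPM in FT. The FT sample was above the Sham sample in every pair while the groups overlapped, and the log2 fold change was 1.254 ± 0.21 (adjusted p of 0.242 by edgeR and 6.04e-05 by DESeq2).

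Cd320, the receptor that takes up transcobalamin-bound vitamin B12, was at 33.2, 16.2, 18.5 and 18.1 CPM in Sham and 53.7, 48.5, 42.1 and 42.1 CPM in FT. The groups did not overlap and the log2 fold change was 1.15 ± 0.21. Fam69b, a protein kinase-like gene of the endoplasmic reticulum, was at 69.4, 50.8, 27.5 and 42.8 CPM in Sham and 155, 92.8, 78.7 and 79.99 CPM in FT, again without overlap, with a log2 fold change of 1.12 ± 0.19. The other leading transcripts were Dpm3, a subunit of the dolichol-phosphate mannose synthase (1.41 ± 0.22), Lrtm2, a leucine-rich repeat membrane protein (1.40 ± 0.25), Plod1, a collagen lysyl hydroxylase (1.19 ± 0.21), Tube1, epsilon tubulin of the centriole (2.33 ± 0.39), and DEPP, a transcript induced by progesterone and FoxO factors (2.08 ± 0.31), each as log2 fold change ± SE. DESeq2 called all of these but DEPP, for which it gave no adjusted p. DEPP was near the limit of detection, at 1.02, 0.394, 1.67 and 3.6 CPM in Sham and 6.07, 0.693, 7.05 and 13.1 CPM in FT, and the Tube1 Sham sample of replicate 1 held 0 reads.

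On the lower side the leading named transcripts included RNA-binding and neurite-related genes. Ncl, nucleolin, the abundant nucleolar protein of ribosome assembly, was at 313, 853, 175 and 132 CPM in Sham and 111, 343, 94.7 and 78.6 CPM in FT. It was lower in 4 of 4 pairs although replicate 3 stood above the other samples of its group, and its log2 fold change was -1.11 ± 0.22 (adjusted p of 0.275 by edgeR and 0.000325 by DESeq2). Snrpd1, a core Sm protein of the spliceosome, was at 52.2, 137, 36.1 and 26.4 CPM in Sham and 24.9, 72.4, 13.1 and 14.4 CPM in FT, with a log2 fold change of -1.08 ± 0.19. Opcml, a cell adhesion molecule of the IgLON family on neurons, was at 218, 159.6, 173 and 145 CPM in Sham and 86.7, 95.6, 96.5 and 84.7 CPM in FT. Its groups did not overlap, the FT samples were close together, and the log2 fold change was -0.92 ± 0.20 (adjusted p of 0.281 by edgeR and 0.00141 by DESeq2).

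Rtn4, which encodes the neurite growth inhibitor Nogo, was at 261, 131, 115 and 72.2 CPM in Sham and 130.2, 77.6, 52.1 and 47.4 CPM in FT, and the groups overlapped. Its log2 fold change was -0.88 ± 0.19. Myo9a, an unconventional myosin (-0.87 ± 0.19), and Sh3bgrl (-0.89 ± 0.20) had FT samples wholly below the Sham samples. The other leading lower transcripts were the transcription repressor Trps1 (-1.08 ± 0.20), the phosphatase Ppm1e (-1.005 ± 0.21), Tulp4 (-1.34 ± 0.26) and the inward rectifier potassium channel Kcnj10 (-1.68 ± 0.38), with log2 fold change ± SE. Kcnj10 was at 0.815, 5.91, 4.83 and 2.11 CPM in Sham and 0.234, 2.77, 0.887 and 0.894 CPM in FT, and DESeq2 gave it no adjusted p.

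**Figure D2:**
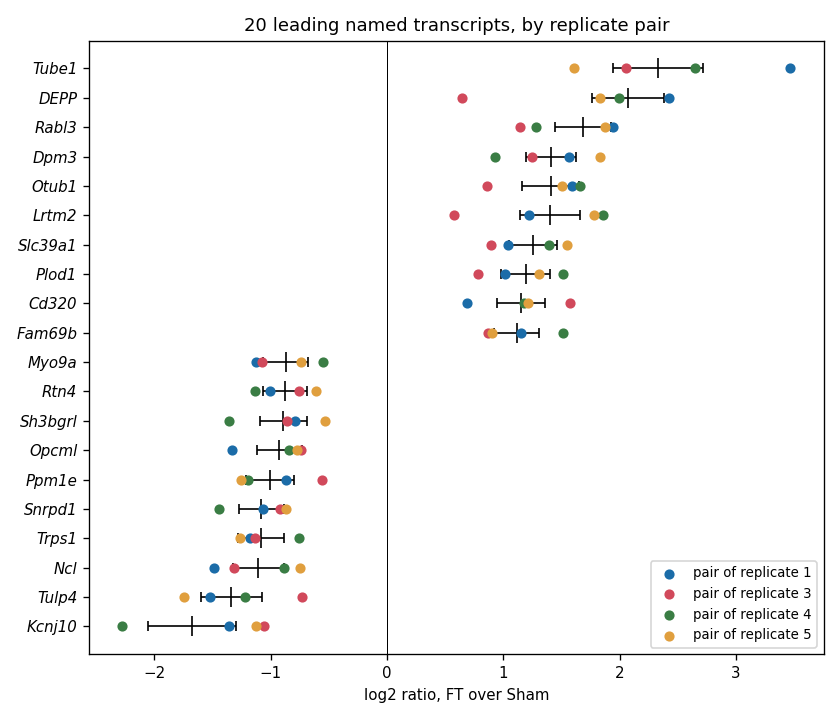
Log2 ratio of FT over Sham in each replicate pair for the 10 leading named transcripts in each direction: coloured points are the pairs of replicates 1, 3, 4 and 5, the black tick is edgeR's log2 fold change and the bar its SE. Having 4 pairs on the same side of 0 was a condition for being shown, so only the size and spread of the ratios are to be read.

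DESeq2 called 191 transcripts with a name. The 145 called higher (9.1% of the 1594 named transcripts given an adjusted p) had a median log2 fold change of 0.89, from 0.59 to 2.33, and the 46 called lower (2.89%) had a median of -0.81, from -1.34 to -0.56. Over all named transcripts tested the median log2 fold change was 0.18, against 0.034 over all 13384, and 468 of the 1828 were higher in FT in 4 of 4 pairs and 178 lower. A negative log2 fold change was found for 764 of the 1828 and for 6271 of all 13384. The lists below are read against these values.

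Members of both mitochondrial lists were called higher by DESeq2 and none were called lower. Of all named transcripts it called 9.1% higher and 2.89% lower, and 468 of 1828 were higher in 4 of 4 pairs. The 8 named transcripts encoded by mitochondrial DNA, given in the last section, all had a negative log2 fold change. The respiratory chain pumps protons across the inner membrane and ATP synthase spends the gradient to make ATP, and most of their subunits are encoded in the nucleus and imported. Of 28 nuclear-encoded respiratory chain and ATP synthase subunits tested, DESeq2 called 4 higher and 0 lower, 9 were higher in 4 of 4 pairs, and the median log2 fold change was 0.37. Uqcrq, a subunit of complex III, was at 155, 564, 63.9 and 199 CPM in Sham and 658, 942, 322 and 377 CPM in FT. Each FT sample was above its own Sham sample though the groups overlapped, and the log2 fold change was 1.52 ± 0.32 (adjusted p of 0.28 by edgeR and 0.000839 by DESeq2). Ndufa7 of complex I was at 167, 130.1, 70.3 and 80.1 CPM in Sham and 330.4, 322, 103 and 184 CPM in FT, a log2 fold change of 1.01 ± 0.21. Ndufs8 (1.01 ± 0.25) and Ndufb9 (0.70 ± 0.22), also of complex I, were the other subunits that DESeq2 called.

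The mitochondrial ribosome translates the few proteins encoded by mitochondrial DNA, and the TOM and TIM complexes bring in the rest. Of 30 such genes tested, DESeq2 called 6 higher and 0 lower, 13 were higher in 4 of 4 pairs, and the median log2 fold change was 0.39. Mrps7, of the small mitochondrial ribosomal subunit, was at 45.8, 31.5, 29.4 and 66.5 CPM in Sham and 88.1, 54.4, 95 and 122 CPM in FT. It was higher in every pair, with a log2 fold change of 1.08 ± 0.21 (adjusted p of 0.275 by edgeR and 0.00296 by DESeq2). Tomm6, a small subunit of the outer membrane translocase, had a log2 fold change of 0.85 ± 0.20. Mrpl55 (0.78 ± 0.19), Mrpl15 (0.74 ± 0.18), Mrps11 (0.69 ± 0.19) and Mrpl53 (0.68 ± 0.20) made up the rest of the called members.

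The promoters of these nuclear genes were searched for 2 motifs. CCGGAAG is a form of the sequence bound by ETS-family factors. TGCGCA reads the same on both strands and is a part of the site of nuclear respiratory factor 1. Both strands were searched in the 300 bases around each start in the RefSeq annotation of build GRCr8, and the motifs cannot overlap. CCGGAAG was in 7 of 19 respiratory chain promoters (36.8%), in 9 of 26 mitochondrial ribosome and import promoters (34.6%) and in 8.75% of all 33469 promoters. TGCGCA was in 15.8%, 15.4% and 7.24% of the same sets. Uqcrq and Otub1 are among the transcripts that DESeq2 called whichever pair was left out. Both held CCGGAAG, and their promoters are shown with it in capitals. Ndufa7 and Cirbp, called in the same way, and Mrps7 had 0 exact matches to CCGGAAG in this window. Other forms of the ETS site were not searched for, so 0 matches does not show that a promoter lacks one. The Uqcrq promoter lies at chr10:38089929-38090228 on the minus strand and that of Otub1 at chr1:213824630-213824929 on the minus strand of GRCr8, each written 5′ to 3′.
Uqcrq: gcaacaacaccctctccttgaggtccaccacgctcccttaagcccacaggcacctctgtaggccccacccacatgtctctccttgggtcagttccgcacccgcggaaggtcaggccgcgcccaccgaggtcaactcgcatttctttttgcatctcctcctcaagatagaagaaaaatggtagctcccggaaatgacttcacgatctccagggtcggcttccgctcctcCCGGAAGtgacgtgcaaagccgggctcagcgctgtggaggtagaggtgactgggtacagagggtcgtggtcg
Otub1: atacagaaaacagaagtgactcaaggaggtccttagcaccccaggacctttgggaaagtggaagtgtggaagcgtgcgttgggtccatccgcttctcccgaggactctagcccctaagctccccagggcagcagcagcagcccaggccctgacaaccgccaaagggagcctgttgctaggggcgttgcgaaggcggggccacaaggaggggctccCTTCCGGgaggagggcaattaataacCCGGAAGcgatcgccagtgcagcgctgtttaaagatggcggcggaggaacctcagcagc
The Uqcrq promoter held the motif 1 time and the Otub1 promoter 2 times, in opposite orientations. A match is a description of letters and was not tested against the fold changes.

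Genes of protein turnover were the next group. Ubiquitin ligases attach ubiquitin to proteins, deubiquitinases remove it, and the proteasome degrades what is tagged. Of 35 ubiquitin ligases and deubiquitinases tested, DESeq2 called 7 higher and 0 lower, and the median log2 fold change was 0.33. Of all named transcripts it called 9.1% higher and 2.89% lower. The list went both ways, with 13 of the 35 at a negative log2 fold change. In 4 of 4 pairs 13 were higher and 4 lower. Besides Otub1 the called members were the F-box gene Fbxo4 (1.67 ± 0.34), Trim28 (1.00 ± 0.24), Rnf114 (0.79 ± 0.20), Fbxo18 (0.69 ± 0.19), Trim3 (0.68 ± 0.19) and Usp20 (0.70 ± 0.19). Of 6 proteasome subunits tested, DESeq2 called 3 higher, namely Psma7, Psmb10 and Psmd8. Psma7, of the outer ring of the core particle, was at 340.5, 445, 239 and 308 CPM in Sham and 641, 859, 478 and 501 CPM in FT. The groups did not overlap and the log2 fold change was 0.89 ± 0.21 (adjusted p of 0.294 by edgeR and 0.000741 by DESeq2). Psmd10, an assembly chaperone, was at -0.66 ± 0.25 and was not called.

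Among 9 chromatin regulators, 3 were called higher by DESeq2 and 0 lower, and 5 were higher in 4 of 4 pairs. Trim28, the corepressor KAP1 that recruits the histone methyltransferase SETDB1 to transposable elements, was at 132, 80.02, 77.8 and 112 CPM in Sham and 181, 133, 233 and 263 CPM in FT. Its groups did not overlap, though the lowest FT sample barely cleared the highest Sham sample, and the log2 fold change was 1.00 ± 0.24 (adjusted p of 0.294 by edgeR and 0.0151 by DESeq2). Setdb1 itself was at 13.04, 16.9, 44.5 and 150.0 CPM in Sham and 17.5, 30.1, 369 and 339.9 CPM in FT. Its FT samples of replicates 4 and 5 lay far above all others, and the log2 fold change was 1.38 ± 0.40 (DESeq2 adjusted p of 0.0439). The mediator subunit Med26 had a log2 fold change of 1.16 ± 0.32, while Hdac8, Brd3, Auts2 and Ehmt2 were between -0.50 and -0.13 and not called.

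**Figure D3:**
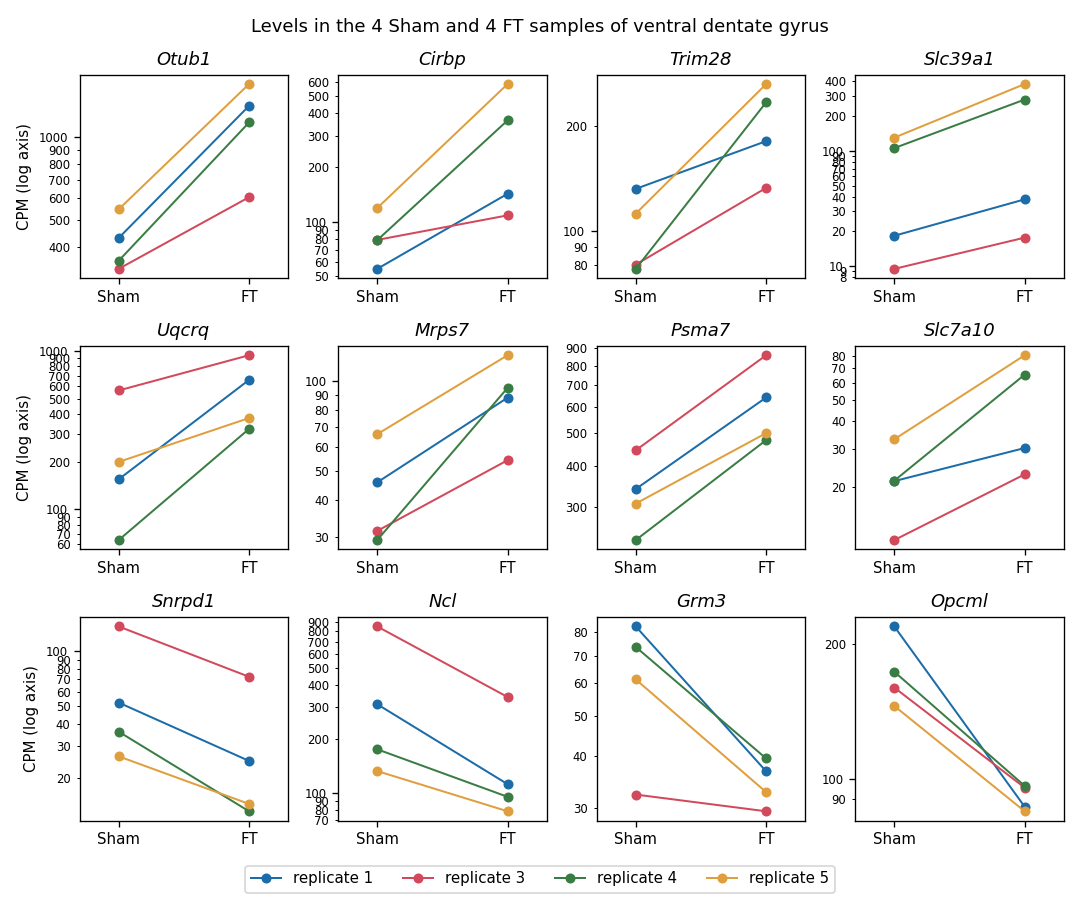
Levels of 12 transcripts in every sample: the y axis is CPM on a log scale and each line joins the Sham and the FT sample of a replicate pair. The first 8 panels hold transcripts that DESeq2 called higher in FT and the last 4 hold transcripts called lower. Slc39a1 differs more between replicates 1 and 3 and replicates 4 and 5 than between Sham and FT.

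Receptors and channels of neurotransmission were followed by list. Htr1a, the inhibitory serotonin 1A receptor on granule cells, was the only member of the list of 25 monoamine receptors, transporters and related genes with an ID. It was at 0.306, 9.07, 2.37 and 4.84 CPM in Sham and 0.584, 9.01, 0.701 and 0.894 CPM in FT, so that replicates 4 and 5 were lower in FT and replicates 1 and 3 were not. Its log2 fold change of -1.08 ± 0.52 did not pass (edgeR adjusted p of 0.441, none given by DESeq2). Of 6 GABA receptor subunits and transporters tested, none was called and 4 were lower in 4 of 4 pairs, with a median log2 fold change of -0.56. The receptor subunit Gabrb1 was at 42.4, 36.3, 41.2 and 47.4 CPM in Sham and 25.9, 32.6, 26.6 and 29.8 CPM in FT. The groups did not overlap, but the log2 fold change of -0.55 ± 0.19 did not pass in either tool (DESeq2 adjusted p of 0.156). Gabrb2 was at -1.24 ± 0.34, Gabrg1 at -0.56 ± 0.23 and Gabra3 at -0.61 ± 0.29. Of these DESeq2 gave an adjusted p only to Gabrg1, which was not called.

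Grm3, a presynaptic and astrocytic metabotropic glutamate receptor, was the only 1 of 5 glutamate receptors tested that DESeq2 called, and the median log2 fold change of the list was -0.11, with Grin2c at 0.28 ± 0.24 and Grm4 at 0.38 ± 0.42 above 0. Grm3 was at 82.4, 32.3, 73.5 and 61.4 CPM in Sham and 36.8, 29.4, 39.5 and 32.8 CPM in FT. The replicate 3 Sham sample was low, and the log2 fold change was -0.80 ± 0.21 (adjusted p of 0.338 by edgeR and 0.041 by DESeq2). Of 20 voltage-gated and potassium channel genes, 16 had a negative log2 fold change, beside 764 of all 1828 named transcripts. In 4 of 4 pairs 9 of the 20 were lower and 4 higher, and the median was -0.56. The list's medians by pair were -0.27 and 0.23 for replicates 1 and 3, against -0.70 and -0.97 for replicates 4 and 5. DESeq2 called Kcnj3, the GIRK1 subunit that opens on Gi-coupled receptor activation (-0.72 ± 0.19), and the calcium channel subunit Cacnb4 (-0.65 ± 0.20) lower. Kcna2 (-1.62 ± 0.48) and Cacna1i (-1.40 ± 0.41) were lower in 4 of 4 pairs, and DESeq2 gave neither an adjusted p. Among the channel subunits higher in 4 of 4 pairs were Kcnk15 (0.61 ± 0.21), Kcnab3 (0.62 ± 0.25) and Kcng4 (0.56 ± 0.22). Kcnk15 and Kcng4 were not called and Kcnab3 had no adjusted p in DESeq2.

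Of 4 growth factor and receptor genes tested, DESeq2 called 1. Fgf9, a fibroblast growth factor, was called lower at -0.86 ± 0.23 (DESeq2 adjusted p of 0.0541). Ntrk2, the receptor of the neurotrophin BDNF, was at 149, 119.8, 158 and 153 CPM in Sham and 154, 115, 104 and 91.9 CPM in FT. Replicates 4 and 5 were lower in FT and replicates 1 and 3 were level, which gave a log2 fold change of -0.34 ± 0.21 (edgeR adjusted p of 0.531). The neuropeptide precursor Vgf was at 0.64 ± 0.29 and the immediate early gene Fos at 0.071 ± 0.30, neither of them called. Fos is the only 1 of 20 listed immediate early genes with an ID here.

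Cirbp, the cold-inducible RNA-binding protein that follows the daily rhythm of body temperature, was at 54.7, 79.2, 78.9 and 119 CPM in Sham and 143, 108, 365 and 581 CPM in FT. Each pair was higher in FT, most of all in replicates 4 and 5, and the log2 fold change was 1.61 ± 0.32 (adjusted p of 0.275 by edgeR and 0.000713 by DESeq2). The clock output factor Dbp was at 141, 48.9, 41.5 and 44.5 CPM in Sham and 125, 74.1, 82.8 and 98.6 CPM in FT, with a log2 fold change of 0.65 ± 0.25 that was not called, and its relative Tef was at 0.23 ± 0.20. Of the corticosteroid list, the mineralocorticoid receptor Nr3c2 was at -0.50 ± 0.27 and the glucocorticoid receptor co-chaperone Fkbp4 at 0.42 ± 0.19, neither of them called.

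Of the other genes that the study names, Napb, a SNAP protein of vesicle fusion, was lower in 4 of 4 pairs at -0.83 ± 0.26 and not called (DESeq2 adjusted p of 0.122). Mat2a, which makes the methyl donor S-adenosylmethionine, was at 2.04, 23.3, 68.8 and 68.02 CPM in Sham and 2.86, 30.8, 23.6 and 19.6 CPM in FT, lower in replicates 4 and 5 and higher in replicates 1 and 3. Cds2, an enzyme of phosphatidylinositol synthesis, was at 1.43, 39.02, 4.04 and 3.09 CPM in Sham and 1.17, 75.5, 0.374 and 0.684 CPM in FT. Replicate 3 held nearly all of its level in both groups, so its mean was higher in FT while the paired log2 fold change was -1.03 ± 0.63 (edgeR adjusted p of 0.53).

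Ribosomal and splicing genes went both ways. Of 25 transcripts whose symbols fit the pattern of cytosolic ribosomal proteins, DESeq2 called Rps10 (0.83 ± 0.22) and Rps14 (0.73 ± 0.25) higher and Rpl23a (-1.01 ± 0.25) lower, and the median was 0.0004. The pattern also took Rps6ka4, a kinase, and near-copies such as Rps10l1 and Rpl32-ps1, whose reads cannot be told from those of their parent genes with certainty. The list's medians by pair were 0.31 and 0.99 for replicates 1 and 3, against -0.86 and -0.55 for replicates 4 and 5. Of 17 splicing factors and helicases, the splicing factor Sf3a1 (0.90 ± 0.27) was called higher and 2 were called lower, Snrpd1 (-1.08 ± 0.19) among them.

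**Figure D4:**
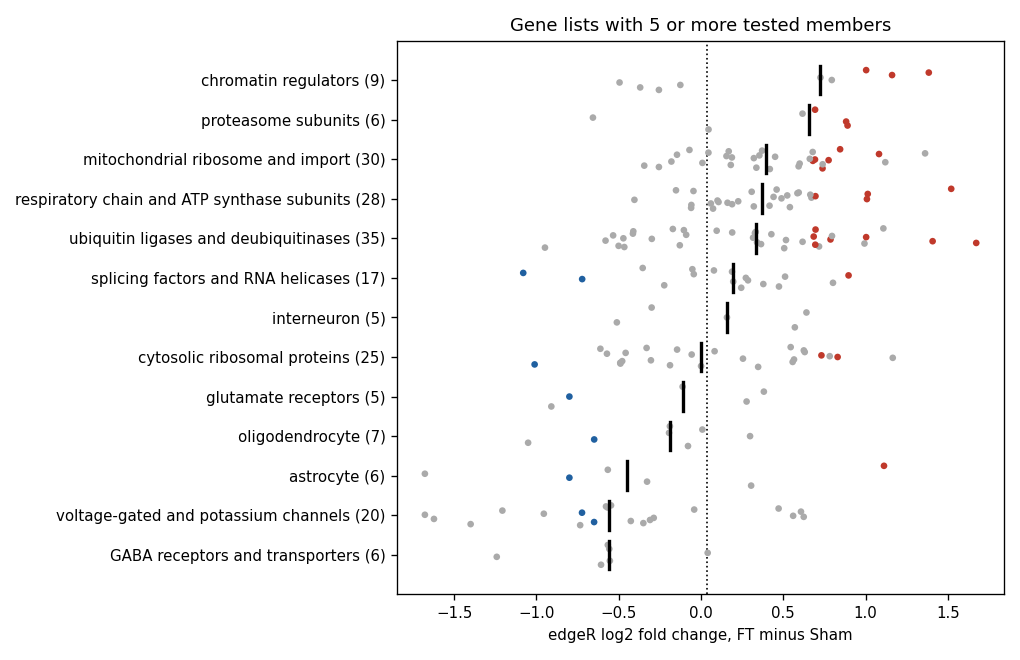
Log2 fold changes of the members of the 13 gene lists with 5 or more tested members: each point is a transcript, red where DESeq2 called it higher in FT and blue where it called it lower, the black tick is the list's median and the dotted line the median of all transcripts tested (0.03). All list members are named transcripts, and the median of all named transcripts was 0.18, which is not drawn. The number tested is given beside each list, and Trim28, Grm3, Kcnj10 and Slc6a11 each belong to 2 of the lists.

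Markers of cell types were followed beside these groups. Ttr, made in large amounts by the choroid plexus that borders the hippocampus, was at 2102, 2586, 2003 and 2145 CPM in Sham and 2241, 5352, 509.6 and 76.4 CPM in FT. The Sham samples were alike, while the FT samples of replicates 4 and 5 were lower and that of replicate 3 higher than any of them, and Kcnj13 of the same list gave 6.72, 3.94, 19.3 and 26 CPM in Sham and 9.05, 6.24, 9.9 and 2.1 CPM in FT. In the astrocyte list, with 6 of 20 markers matched, the neutral amino acid transporter Slc7a10 was called higher, at 21.3, 11.4, 21.4 and 33.1 CPM in Sham and 30.2, 22.9, 65.5 and 80.4 CPM in FT (log2 fold change 1.11 ± 0.23), while Grm3 was called lower and Gja1 was at -0.33 ± 0.21. The summed level of the astrocyte markers was 535 to 13388 CPM in Sham and 505 to 32576 CPM in FT, with the highest value in replicate 3 of both groups. In replicate 3 a single marker held 97.1% of the sum in Sham and 98.8% in FT, and without it the other 5 summed to 348 to 491 CPM in Sham and 305 to 385 CPM in FT, with replicate 3 inside the range in Sham and at its top in FT. Of 7 oligodendrocyte markers tested, the actin-binding Ermn was called lower (-0.65 ± 0.19) and the summed level was 201 to 435 CPM in Sham and 224 to 312 CPM in FT.

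Sox10, a transcription factor of the oligodendrocyte lineage, was called higher at 25.98, 19.7, 11.4 and 10.7 CPM in Sham and 41.3, 40.9, 17.7 and 19.7 CPM in FT (log2 fold change 0.80 ± 0.19), and Olig2 was at 0.66 ± 0.29 and not called. The 3 microglia markers summed to 75.8 to 169 CPM in Sham and 143 to 158 CPM in FT. The 5 interneuron markers summed to 142 to 1044 CPM in Sham and 144 to 1852 CPM in FT, with Sst at 0.64 ± 0.23 and Gad2 at -0.51 ± 0.19. The granule cell markers C1ql3 and Rfx3 were at -0.41 ± 0.20 and -0.51 ± 0.26, and Neurod1, active in newborn neurons, was at -0.27 ± 0.20, none of them called. The excitatory markers Slc17a6 (-0.73 ± 0.29) and Wfs1 (-0.59 ± 0.28) were not called either. No matched marker was at 0 in every sample, and the part of these markers in the results above was not tested.

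The smallest p-values of the whole table belonged to abundant transcripts with no symbol. ENSRNOT00000073568 was at 8192, 7085, 632 and 527 CPM in Sham and 1549, 2387, 75.9 and 69.8 CPM in FT, and ENSRNOT00000074254 was at 8201, 7014, 636 and 539.6 CPM in Sham and 1658, 2374, 77.6 and 69.4 CPM in FT. Both were lower in every pair, with log2 fold changes of -2.49 ± 0.34 and -2.47 ± 0.34, and replicates 1 and 3 were far above replicates 4 and 5. Their levels nearly match sample by sample, and the files list 0 reads as not unique, so reads shared between near-identical copies cannot be told apart here. On the higher side the leading unnamed transcripts were ENSRNOT00000068149 (1.13 ± 0.19) and ENSRNOT00000019853 (1.31 ± 0.24).

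The dorsal dentate gyrus (dorDG), with 4 FT and 4 Sham samples of the same numbers and treatment, was used to ask whether the ventral response differed from the dorsal one. The test of the difference called 0 of 14265 transcripts by edgeR (0%, smallest adjusted p of 0.9996) and 0 of 23110 by DESeq2 (0%). At an unadjusted p under 0.05 there were 175 by edgeR and 200 by DESeq2. Taken alone, dorDG had 0 DEGs by edgeR and 296 by DESeq2, 97 higher and 199 lower. The regions had 42 DESeq2 DEGs in common, 17.3% of the 243 in venDG and 14.2% of the 296 in dorDG, all in the same direction. Of the 167 called higher in venDG, 166 had a positive log2 fold change in dorDG, with a median of 0.58, and the 76 called lower were all negative there, with a median of -0.48. The share of all transcripts with the same sign in both regions is not given here. Whether the overlap and the shared signs are particular to the called transcripts is therefore not known. Punches of both regions came from the same groups of animals, so the regions are not independent experiments. A p that misses the threshold does not show that the responses were alike.

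Otub1, Cirbp and Trim28 were among the DEGs in common. The log2 ratios of Otub1 in the pairs of replicates 1, 3, 4 and 5 were 1.59, 0.86, 1.66 and 1.53 in venDG and 0.95, 0.17, 2.09 and 1.49 in dorDG. The named transcripts that differed most were Th, Slc17a6 and Wfs1, lower in the ventral response, and Rpl7l1, Ddx17 and Mpeg1, higher in it. Th, the rate-limiting enzyme of catecholamine synthesis, had log2 ratios of -1.95, -1.25, -0.73 and -0.59 in venDG and 0.23, 0.60, 1.14 and 2.27 in dorDG. All pairs were negative in venDG and positive in dorDG, and the difference was -2.51 ± 0.64 (SE) with an edgeR adjusted p of 1. Its level in venDG was low, at 5.3, 5.12, 1.32 and 1.18 CPM in Sham and 1.28, 2.08, 0.747 and 0.736 CPM in FT. For Slc17a6 the difference was -1.46 ± 0.38 and for Wfs1, a marker of CA1 pyramidal cells, -1.36 ± 0.46. On the other side it was 1.18 ± 0.43 for Rpl7l1, 0.93 ± 0.34 for the RNA helicase Ddx17 and 1.59 ± 0.59 for Mpeg1, a macrophage gene.

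**Figure D5:**
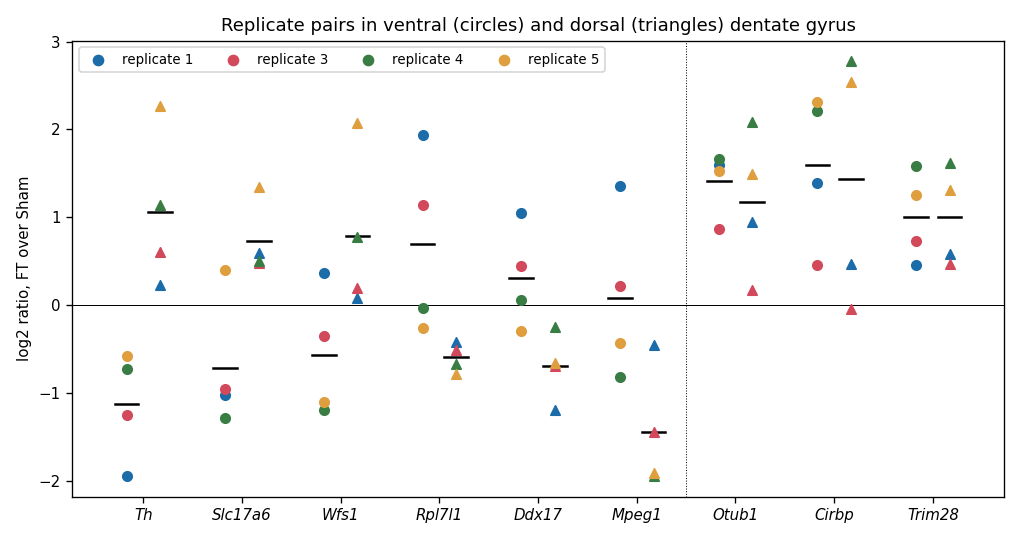
Log2 ratio of FT over Sham in each replicate pair of venDG (circles) and dorDG (triangles): the y axis is the log2 ratio, colours mark the replicate and the black line is the mean of the 4 pairs. Left of the dotted line are the 6 named transcripts with the smallest p for a difference between the regions, none of which passed, and right of it 3 transcripts that DESeq2 called in both.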

How the data were processed

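Bulk RNA-seq counts of 8 venDG and 8 dorDG samples were analysed. The authors deposited raw counts per transcript without normalization, made with STAR on rn5 and HTSeq per the labels (versions not given in the sources used here). The labels give polyA RNA, while the kit they name is for total RNA. The last 5 summary lines of each file were dropped. Transcripts were filtered (filterByExpr), scaled by TMM and tested with edgeR 4.0.16 (quasi-likelihood) in R 4.3.3 with the replicate number as a block. SE is the absolute log2 fold change divided by the square root of F. A DEG had an absolute log2 fold change from 0.32 and an adjusted p up to 0.1 (Benjamini-Hochberg, over all transcripts tested). DESeq2 1.42.0 with the same block, no block, median-ratio size factors, no filter on low counts, a stricter adjusted p (0.05) and leaving out each pair were alternatives. Pair ratios used log2 CPM with a prior count of 2.

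The pairing rests on the study's methods, and the deviations of same-numbered samples from their group means correlated at r = 0.72, 0.82, 0.80 and 0.68 for replicates 1, 3, 4 and 5. Replicates 4 and 5 also deviated together across numbers (r = 0.73 and 0.72). Named are, among transcripts with a symbol, a mean of at least 1 CPM and the same sign in 4 of 4 pairs, the 10 with the smallest p in each direction, 10 genes that the study names, the 2 leading members of each gene list, the 3 leading transcripts in each direction of the regional difference and 2 unnamed IDs in each direction. Other list members are named where DESeq2 called them or where they complete a count, after their values were seen. The members and lists were chosen with earlier results of these data known. Scripts were tested on simulated counts. A few transcripts that this rule takes are not reported here. Depth limits precision for transcripts of a few reads. Coordinates in rn5 were not used here, and promoters come from RefSeq on GRCr8.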

Additional observations from a re-analysis of the deposited data

Results flagged for a closer look

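In 18 of 146 groups of 4 samples checked over the 73 named transcripts, a sample's gap to the nearest other exceeded Dixon's 95% critical value for 4 samples, and chance flags about 1 in 20 groups. In 13 of the 18 the sample was of replicate 3 and higher than the others. The low TMM factors of replicate 3 (0.46 in Sham and 0.49 in FT) raise its CPM against the other replicates. The part of this scaling in the flags was not tested. Both groups were affected for Cds2 at 39.02 CPM (others 1.43 to 4.04) in Sham and 75.5 CPM (others 0.374 to 1.17) in FT, Tulp4 at 29.96 CPM (others 6.62 to 8.96) in Sham and 18.02 CPM (others 2.22 to 3.55) in FT, Fgf9 at 21.7 CPM (others 8.19 to 10.4) in Sham and 13.5 CPM (others 4.85 to 5.26) in FT, Rps10 at 328 CPM (others 6.41 to 24.8) in Sham and 679.7 CPM (others 8.64 to 61.3) in FT, and Sst at 354 CPM (others 10.3 to 56.4) in Sham and 668 CPM (others 17.6 to 108) in FT. In FT alone these were Ncl at 343 CPM (others 78.6 to 111), Htr1a at 9.01 CPM (others 0.584 to 0.894) and the glutamate receptor Grik3 at 4.85 CPM (others 0.467 to 0.794).

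The other 5 were Sham samples. Plod1 stood apart in replicate 5 at 19.4 CPM (others 9.78 to 10.6). In replicate 1, Cd320 was high at 33.2 CPM (others 16.2 to 18.5) and Dbp at 141 CPM (others 41.5 to 48.9), while Kcnj3 was low at 10.9 CPM (others 28.7 to 30.7) and Grik3 at 0.509 CPM (others 2.28 to 2.57).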

How the results depend on the processing

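The edgeR count of 0 in venDG stayed at 0 with an adjusted p of 0.05 and with median-ratio size factors, and ran from 0 to 7 when each pair was left out. The 7 came without replicate 3, the shallow pair, and all were unnamed abundant transcripts with lower levels in FT. Without the low-count filter, 341 of 22224 transcripts were called (239 higher, 102 lower), of which 172 were also DESeq2 calls. DESeq2 called 243 and, when each pair was left out, an alternative chosen after seeing the data, 53 to 216 (110, 166, 53 and 216 without replicates 1, 3, 4 and 5). With no replicate block edgeR called 0, and the number at an unadjusted p under 0.05 was 166 in place of 1591. The difference between the regions gave 0 calls in every alternative but the fit without a filter, which called 18. The cause of these shifts was not tested.

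Of the 73 transcripts that the rule named, DESeq2 called 41, none changed sign with median-ratio size factors, and 2 did so with no replicate block (Cds2 to 0.73 and Ddx17 to -0.012). Leaving out a pair gave log2 fold changes of -0.17 to 0.35 for Fos, -0.055 to 0.43 for Ddx17 and -0.61 to 0.23 for Mpeg1, and no other sign changed. Of 24 list medians, 1 moved by more than the SD between pairs with no block, 1 without replicate 3 and 1 without replicate 5.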

Other observations

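Transcripts encoded by mitochondrial DNA, looked at after their values were seen, lay on the other side of 0 from most nuclear-encoded subunits. The 8 with a symbol all had a negative log2 fold change, with a median of -0.76, and DESeq2 called 4 of them lower. MT-CO2, a catalytic subunit of complex IV, was at 24812, 22415, 8638 and 4912 CPM in Sham (replicates 1, 3, 4 and 5) and at 7429, 9241, 5342 and 4709 CPM in FT, a log2 fold change of -0.94 ± 0.39 (SE, 4 pairs). ND3, of complex I, was at 2841, 4079, 206 and 99.2 CPM in Sham and 1336, 2662, 87.9 and 82.6 CPM in FT (-0.80 ± 0.27). MT-ND4L (-1.004 ± 0.32) and MT-ND5 (-0.84 ± 0.31) were the others called, and both were level or slightly higher in FT in replicate 5. edgeR called none of the 8.

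The 8 abundant unnamed transcripts with a log2 fold change under -2 and a mean over 1000 CPM, also picked after their values were seen, took 11.1%, 20.4%, 1.61% and 1.27% of the reads in Sham (same order of replicates) and 2.80%, 21.9%, 0.15% and 0.13% in the FT samples. ENSRNOT00000074325 held most of the share in replicate 3, with 999172 of 5577115 reads in Sham and 1240340 of 5937594 in FT. After TMM scaling these were 393856 CPM in Sham and 429719 CPM in FT, which are not shares of the reads. The other 7 were lower in FT in that pair.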
